A study of Mus musculus with 12 samples.

Results

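Tbx1, Tbx2, Tbx3, Tbx4 and Tbx5 are the 5 genes described here, out of 17 mouse genes of the T-box family and out of 52636 genes in the count tables. They were taken as the rows whose Ensembl IDs carry these symbols in the GENCODE M21 annotation, and they were selected on the measured CPM of the acute libraries, in which Tbx2 was higher after smoke than after room air, so the acute comparison of these genes is given as a description and without a test. RNA was sequenced from lung lymphatic endothelial cells (LECs) of Prox1-EGFP mice, in which regulatory sequence of Prox1 drives green fluorescent protein. Cells were sorted as live, negative for a hematopoietic lineage cocktail and for EpCAM, and positive for CD31 and GFP. The mice breathed cigarette smoke (CS) in a whole-body chamber or room air (RA), starting at 6 weeks of age, for 8 weeks (acute) or for at least 24 weeks (chronic), as the study's methods state. The labels instead give 8 weeks as the age of the acute mice, a difference that could not be settled here. The 12 libraries comprised acute RA (1 female, 1 male), acute CS (1 female, 1 male), chronic RA (1 female, 2 males) and chronic CS (1 female, 4 males), named below by group and by F, M or M1 to M4. All mice of all 4 groups carried the reporter. Each acute library pooled cells of 2 to 5 mice and the chronic libraries were not pooled, and the p-values below measure the spread between these libraries.

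T-box genes encode transcription factors that share a conserved DNA-binding region, the T-box, and act in the patterning of heart, limb and lung. Tbx1 is known for its role in lymphatic development, where it acts in endothelial cells upstream of Flt4, the receptor for the lymphatic growth factor VEGF-C. Tbx2 and Tbx3 are close relatives that act mainly as repressors, with cell cycle inhibitor genes among their known targets, and Tbx4 and Tbx5 are best known in the lung for their role in the mesenchyme during branching.

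The 5 genes lie at 3 places in the genome (GRCm38). Tbx1 (ENSMUSG00000009097) spans chr16:18580979-18590671 on the minus strand. Tbx2 (ENSMUSG00000000093) spans chr11:85832551-85841948 and Tbx4 (ENSMUSG00000000094) chr11:85886422-85916097, both on the plus strand and 44473 bases apart. Tbx3 (ENSMUSG00000018604) spans chr5:119670669-119684724 and Tbx5 (ENSMUSG00000018263) chr5:119832668-119885219, also on the plus strand and 147943 bases apart. The family resemblance that the counting had to tell apart is shown by the 120 coding bases that are most alike in all 5 genes when aligned without gaps and in frame. The stretch lies within the part that encodes the T-box, crosses an exon boundary in every gene, and was read from the GENCODE M21 transcripts, 5′ to 3′, for 4 of the genes, with the bases that are identical in all 5 genes in capitals.
Tbx1: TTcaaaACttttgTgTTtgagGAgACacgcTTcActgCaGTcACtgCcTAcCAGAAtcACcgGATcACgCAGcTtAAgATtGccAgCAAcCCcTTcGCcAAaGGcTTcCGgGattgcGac
Tbx2: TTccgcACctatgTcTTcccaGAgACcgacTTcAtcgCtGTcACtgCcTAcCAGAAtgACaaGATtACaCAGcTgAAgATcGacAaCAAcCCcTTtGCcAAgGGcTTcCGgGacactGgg
Tbx3: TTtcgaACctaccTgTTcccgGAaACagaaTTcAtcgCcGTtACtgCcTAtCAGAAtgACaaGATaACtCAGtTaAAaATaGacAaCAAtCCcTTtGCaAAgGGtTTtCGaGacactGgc
Tbx5: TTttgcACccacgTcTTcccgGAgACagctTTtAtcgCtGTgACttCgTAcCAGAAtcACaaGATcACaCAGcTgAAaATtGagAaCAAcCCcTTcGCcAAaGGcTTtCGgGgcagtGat
These stretches start at coding bases 772 (Tbx1, chr16:18582918-18583481), 748 (Tbx2, chr11:85835879-85837109), 802 (Tbx3, chr5:119675642-119677557) and 601 (Tbx5, chr5:119845055-119853585), with the introns between included in the coordinates. Of the 120 positions, 63 held the same base in all 5 genes. Among the 4 stretches shown, Tbx2 shared 80% of bases with both Tbx3 and Tbx5, and Tbx1 and Tbx3 were the least alike (65%). Even so, no run of 50 bases in the transcripts of any of the 5 genes also occurred in another of the 5, so reads of that length could be assigned to one member. Tbx5 shared 17 of its 4620 runs with transcripts of other genes. Tbx3 shared 67 of its 6660 runs of 50 bases with Tbx3os1, an antisense gene that overlaps it over 697 bases at chr5:119670669-119671365. The library kit does not mark strand, so reads from that overlap cannot be told apart, and Tbx3os1 was counted at 0 to 7.30 CPM (a unit defined in the next paragraph), highest in acute CS F and at most 1.32 in the other libraries.

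Total counts per library ran from 18821438 (chronic CS F) to 56998590 (acute RA F), and levels are given as CPM, a gene's counts per 1000000 counts of the library, after scaling the library sizes by trimmed mean of M-values (TMM). A count of 3, taken as the detection floor and covering counting error only, was worth 0.0507 to 0.158 CPM. The sorted cells carried the lymphatic markers, with the 8 lymphatic genes summing to 15254 to 22931 CPM in the RA libraries, but markers of other cells also differed between groups. In acute CS the lymphatic sum was 6485 and 9822 CPM, while 7 leukocyte genes summed to 2330 and 2576 CPM against 103 and 172 in acute RA, and 6 of 8 general blood capillary genes, 3 of 6 aerocyte capillary genes, 6 of 11 mesenchymal genes, 5 of 7 leukocyte genes and 1 of 7 alveolar epithelial genes rose by edgeR's quasi-likelihood test at a Benjamini-Hochberg adjusted p under 0.05. Of the 39 genes in these 5 lists 21 thus rose, and 2 did without acute RA F, 0 without acute RA M, 8 without acute CS F and 17 without acute CS M. Of the 8 lymphatic genes 3 fell (Prox1, Flt4 and Nrp2), which became 1, 0, 1 and 6 when the same libraries were left out in turn, 0 without the chronic libraries and 1 with a replicate block. The 21 became 7 and 3 in these last fits. Lyve1, also on the lymphatic list, went the other way without overlap (edgeR adjusted p = 0.307). It measured 777 ± 295 CPM in acute CS and 489 ± 65.9 CPM in acute RA (SD, n = 2 each). Ccl21a was near the detection floor, at group means of 0.148 to 0.646 CPM. With all 12 libraries and no block, no mesothelial or cardiac muscle gene passed. Of all 21440 tested genes, 590 rose and 155 fell in that fit (3.47% in all). These values are given beside the T-box genes below, since in a bulk sample fewer cells of a type and less RNA per cell cannot be told apart.

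In room air the T-box genes of lung LECs were dominated by Tbx1. Tbx1 measured 770.4 and 830.3 CPM in acute RA F and M, and 967, 773 and 904 CPM in chronic RA F, M1 and M2. Per kilobase of exon this was a mean of 241 over the RA libraries on the scale called FPKM here, which is CPM divided by the exon length in kilobases, a level that 129 of 21404 tested genes with an exon length (0.603%) exceeded. Tbx2 had a mean of 5.22 FPKM in RA, Tbx3 2.86, Tbx4 2.57 and Tbx5 0.107 FPKM, with 35.0%, 44.4%, 45.9% and 87.0% of genes higher. Ordered by FPKM, Tbx1 came first and Tbx5 last in every group, with no overlap between Tbx1 and Tbx2 or between Tbx4 and Tbx5 in the RA groups. Tbx2 and Tbx3 were neighbours whose libraries lay close in acute RA but did not overlap, at 3.62 and 5.81 FPKM for Tbx2 and 3.57 and 2.95 for Tbx3. Tbx3 and Tbx4 overlapped there (Tbx4, 3.16 and 2.43 FPKM) and in chronic RA.

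**Figure D1:**
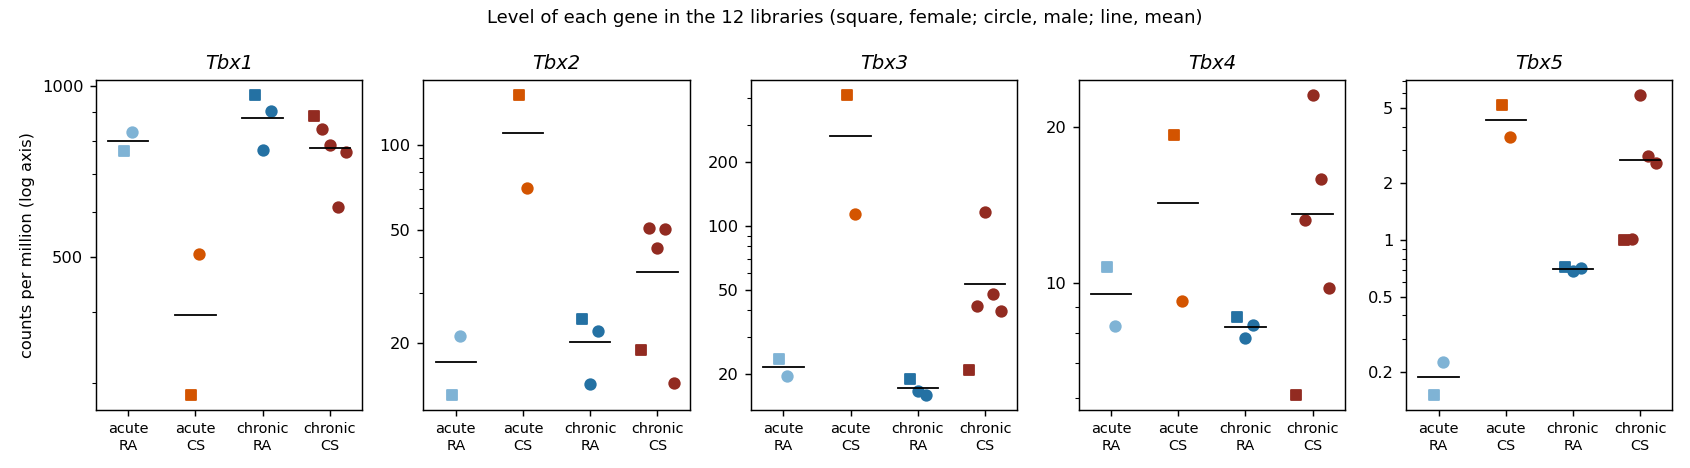
CPM (log axis, a separate scale for each gene) of the 5 genes in each of the 12 libraries, with squares for female and circles for male libraries and a line at each group's mean. Tbx1 lies lowest in both acute CS libraries (286 and 506 CPM), whereas Tbx2, Tbx3 and Tbx5 lie above every RA library there.

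After acute CS the balance of these genes differed in every member but Tbx4. Tbx1 was lower, Tbx2, Tbx3 and Tbx5 were higher, and the values of these 4 genes did not overlap between the 2 CS and the 2 RA libraries, as was the case for 49.9% of the 21440 tested genes. This contrast chose the genes, so the fitted differences are stated as sizes only.

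Tbx1, the lymphatic T-box gene, measured 286 CPM in acute CS F and 506 CPM in acute CS M against 770.4 and 830.3 CPM in acute RA. Both CS libraries lay below every other library of the series, and the fitted log2 fold change was -1.02 (SE 0.24), or -0.66 without acute CS F and -1.49 without acute CS M. Prox1, the master regulator of lymphatic identity, stood beside it at 1042 and 1262 CPM in acute CS against 2239 and 2476 CPM in acute RA (log2 fold change -1.03, SE 0.16, adjusted p = 0.00797 by the same edgeR test). That call was lost without acute RA F, acute RA M or acute CS F and when the chronic libraries were left out of the fit, at adjusted p-values by edgeR of 0.0504 to 0.0919. Relative to Prox1, Tbx1 was thus at 338 ± 89.5 CPM per 1000 CPM of Prox1 in acute CS (SD, n = 2) and at 340 ± 6.24 in acute RA (SD, n = 2). The mean ratio of the 2 groups was close while the CS libraries spread around it, at 274 in F and 401 in M.

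Tbx2 measured 150 CPM in acute CS F and 70.2 CPM in acute CS M against 13.1 and 21.1 CPM in acute RA. Both CS libraries were above all others, and the log2 fold change was 2.69 (SE 0.63), or 2.04 without acute CS F. Tbx3, its close relative, measured 415 and 113 CPM against 23.7 and 19.5 CPM, a log2 fold change of 3.61 (SE 0.75) that was 2.40 without acute CS F. The female CS library held the highest value of both genes. Per kilobase of exon the order of the pair turned, since Tbx3 at 62.7 FPKM exceeded Tbx2 at 41.4 FPKM in acute CS F, while Tbx2 at 19.4 FPKM remained above Tbx3 at 17.1 in acute CS M.

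Tbx4 and Tbx5, the pair with mesenchymal roles, differed from each other. Tbx4 measured 19.3 and 9.24 CPM in acute CS F and M against 10.8 and 8.27 CPM in acute RA, so the groups overlapped, and its log2 fold change of 0.59 (SE 0.53) became -0.039 without acute CS F. Tbx5 measured 5.20 and 3.51 CPM against 0.152 and 0.227 CPM, a log2 fold change of 4.50 (SE 0.92). This was the largest fold among the 5 genes and also the one at the lowest level, since the acute RA libraries held 9 and 12 counts of Tbx5. Tbx5 was higher in both CS libraries and by a like amount, with log2 fold changes of 4.19 to 4.78 over the alternative fits.

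**Figure D2:**
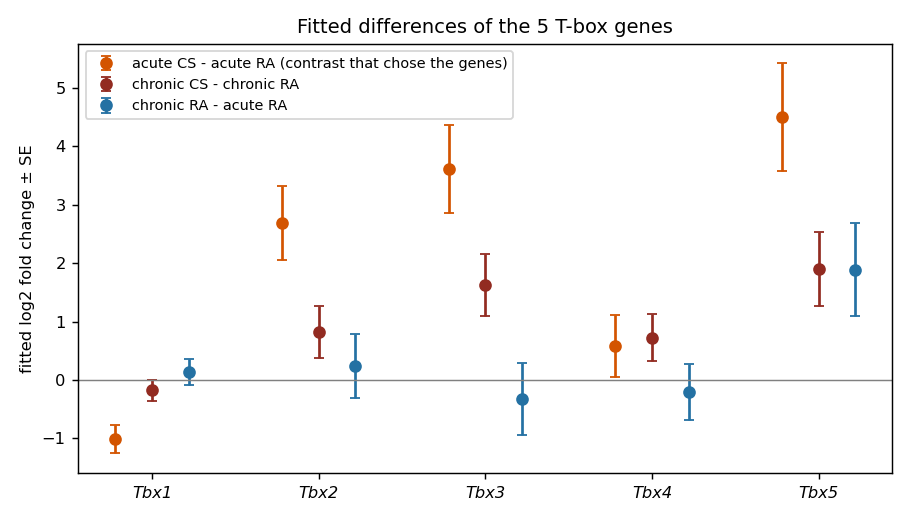
Fitted log2 fold changes of the 5 genes with their standard errors for acute CS against acute RA (orange), chronic CS against chronic RA (dark red) and chronic RA against acute RA (blue), with 2, 2, 3 and 5 libraries in acute RA, acute CS, chronic RA and chronic CS. Tbx5 is highest in each of the 3, and Tbx1 is the gene below 0 after both exposures.

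Expressed as shares, Tbx1 supplied 95.5% of the summed FPKM of the 5 genes in both acute RA libraries but 42.3% in the female acute CS library and 78.3% in the male. Its share in chronic RA was 95.9% ± 0.192 (SD, n = 3), and in chronic CS it ran from 85.7% to 96.1%. The ratio of Tbx3 to Tbx1 by FPKM was 0.0125 and 0.0163 in acute RA and 0.119 and 0.771 in acute CS.

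**Figure D3:**
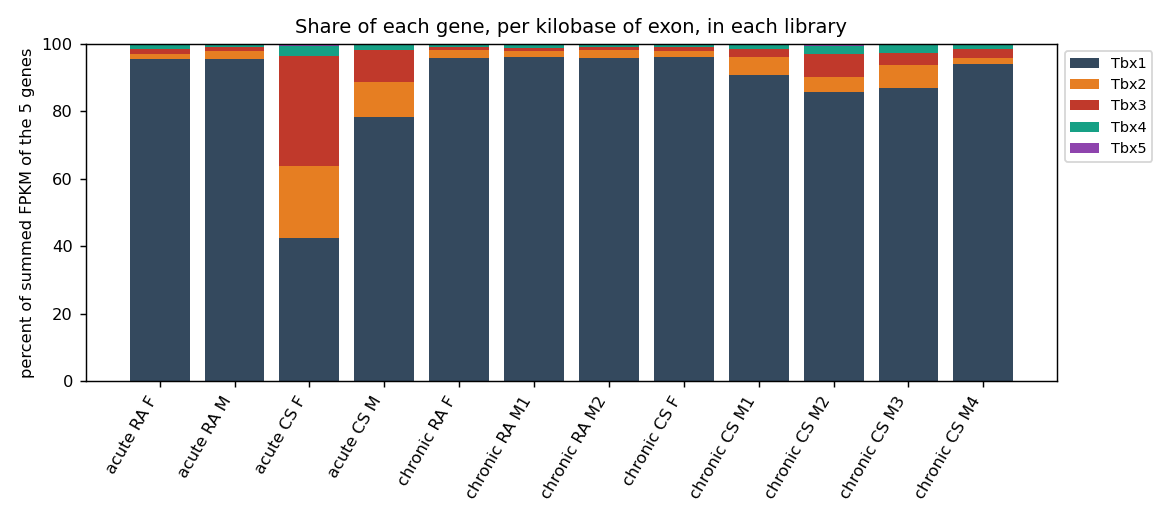
Stacked bars of the percent that each of the 5 genes contributed to their summed FPKM in every library, with Tbx1 at the base. Tbx1 lies at 42.3% in acute CS F, where Tbx2 and Tbx3 make up most of the rest, and lies at 85.7% or more in all chronic libraries.

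The higher Tbx2, Tbx3 and Tbx5 in acute CS stood beside higher levels of genes of other cell types. Car4, a marker of aerocyte capillary endothelium, measured 669.9 and 292 CPM in acute CS F and M against 41.5 and 34.5 CPM in acute RA, and Aplnr, a general capillary gene, 470.2 and 157 CPM against 28.6 and 29.5 CPM. The female CS library was the higher for both, as it was for Tbx2 and Tbx3. The mesenchymal gene Pdgfrb measured 77.7 and 41.2 CPM against 4.88 and 4.33 CPM, and the leukocyte gene Ptprc 285 and 154 CPM against 19.8 and 19.6 CPM. Summed over the lists, the general capillary genes ran from 5578 to 7984 CPM in acute CS against 2902 to 3708 CPM in acute RA. The mesenchymal genes came to 1086 and 1567 CPM in acute CS F and M against 861 and 895 CPM, the male being higher. Of them Npnt was lower, at 248 ± 58.0 CPM in acute CS and 549 ± 0.781 CPM in acute RA (SD, n = 2 each). The other 10 were higher in both CS libraries, and the list's median log2 fold change was 2.23. The aerocyte genes ran from 2100 to 3487 CPM against 2432 to 2671 CPM. Most of the aerocyte sum was Kdr, at 1832 ± 418 CPM in acute CS and 2398 ± 177 CPM in acute RA (SD, n = 2 each), while the other 5 aerocyte genes were higher in both CS libraries and the list's mean log2 CPM was 8.21 and 7.02 against 5.71 and 5.43. Alveolar epithelial genes summed to 6374 CPM in acute CS F and 252 CPM in the male against 742 and 1055 CPM in acute RA. Mesothelial genes summed to 121 and 80.8 CPM in acute CS F and M against 25.6 and 6.30 CPM in acute RA. Of this, Krt19, also a gene of epithelium, held 91.7 ± 23.6 against 6.64 ± 0.48 CPM. The other tested mesothelial genes, Msln, Upk3b and Lrrn4, overlapped between the groups, the list's median log2 fold change was -0.020, and Wt1, a defining mesothelial gene, was at or near 0 in every library. Cardiac muscle genes summed to 70.2 and 265 CPM in acute CS F and M against 71.6 and 25.3 CPM in acute RA. Of these genes Nppa was at or near 0. The part of these other transcripts in the levels of the T-box genes was not tested.

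**Figure D4:**
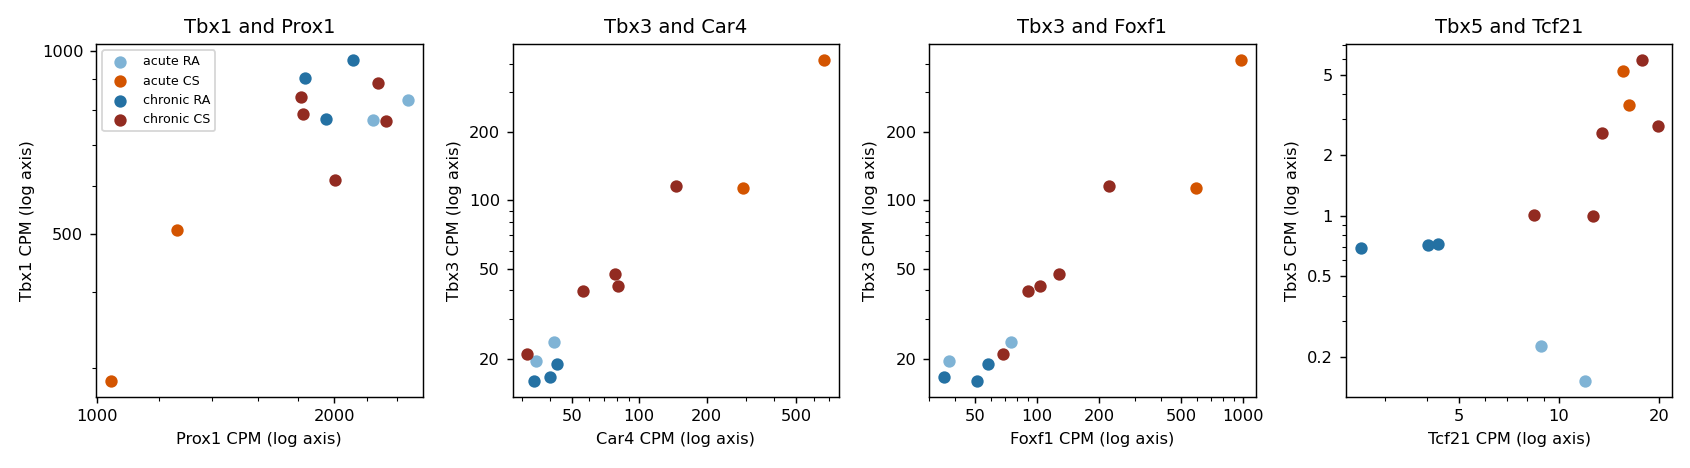
CPM of Tbx1 against Prox1, Tbx3 against Car4 and Foxf1, and Tbx5 against Tcf21 in the 12 libraries, all on log axes and coloured by group. The acute CS libraries are lowest for both Tbx1 and Prox1, and chronic CS M2, with Tbx3 at 116 CPM, is the chronic library with the highest Car4 (146 CPM) and Foxf1 (223 CPM).

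After chronic CS the 5 genes were compared with chronic RA, a contrast that the rule for choosing them did not use. Tbx3 and Tbx5 were above every chronic RA library in all 5 CS libraries, but no member passed an adjusted p of 0.05 by edgeR's quasi-likelihood test. Nor did any of the 21440 tested genes (0%), although 10.9% of them had an unadjusted p under 0.05. Among the 5 members 2 did so, Tbx3 and Tbx5. With DESeq2 both passed after adjustment, at an adjusted p of 0.0304 for Tbx3 and 0.0406 for Tbx5, where 3.41% of the genes with an adjusted p did. The groups did not overlap for 9.41% of all tested genes and for these 2 of the 5 members.

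Tbx3 measured 20.9, 41.9, 116, 47.5 and 39.9 CPM in chronic CS F and M1 to M4 against 19.02, 16.6 and 16 CPM in chronic RA F, M1 and M2. The values ran from just above the RA range in the female to far above it in M2, with a log2 fold change of 1.63 (SE 0.53, 95% interval 0.46 to 2.80). The adjusted p was 0.347 by edgeR (quasi-likelihood, Benjamini-Hochberg), and the 2-sided exact permutation p of 0.0357 was the smallest that 5 libraries against 3 can give. Without M2 the log2 fold change was 1.13, with an adjusted p of 0.413 by the same edgeR test, and over all alternatives the adjusted p ran from 0.0304 with DESeq2 to 0.731.

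Tbx5 measured 0.998, 1.01, 5.90, 2.79 and 2.56 CPM in chronic CS against 0.721, 0.691 and 0.715 CPM in chronic RA. All 5 CS values were higher, F and M1 by little and M2 by the most. In F and M1 Tbx5 held 19 and 23 counts, against 23, 24 and 24 in the chronic RA libraries. The higher CPM of F and M1 came from their smaller total counts. The log2 fold change was 1.90 (SE 0.63, 95% interval 0.52 to 3.28), with an adjusted p of 0.352 by edgeR's quasi-likelihood test and a 2-sided exact permutation p of 0.0357, again the smallest possible. Without M2 it was 1.38.

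The other members overlapped between chronic CS and chronic RA. Tbx1 measured 886, 841, 788.5, 613 and 767 CPM in chronic CS F and M1 to M4, with a log2 fold change of -0.18 (SE 0.17, 95% interval -0.56 to 0.21) and an adjusted p of 0.741 by edgeR's quasi-likelihood test. Tbx2 measured 18.8, 50.8, 43.4, 50.2 and 14.5 CPM, with 3 males above the RA range of 14.3 to 24.3 CPM and with F and M4 inside it. Its log2 fold change was 0.82 (SE 0.45, 95% interval -0.17 to 1.80, edgeR adjusted p = 0.522). Tbx4 measured 6.09, 13.3, 23.1, 15.9 and 9.79 CPM against 7.83 to 8.58 CPM in RA, with the female below and the 4 males above the RA libraries. Its log2 fold change was 0.73 (SE 0.40, 95% interval -0.15 to 1.60, edgeR adjusted p = 0.522).

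Within chronic CS the female library was the lowest for Tbx3, Tbx4 and Tbx5, and M2 was the highest for the same 3 genes. Car4 followed a similar order, at 31.7 CPM in F and 80.2, 146, 78.2 and 56.3 CPM in M1 to M4 against 33.9 to 43.0 CPM in chronic RA. The capillary lists differed between their sums and their mean log2 CPM, since Kdr and Plvap, at means of 2331 and 2135 CPM in chronic CS, made up most of the sums. By mean log2 CPM the general list was at 7.08, 7.40, 7.71, 7.59 and 7.25 in F and M1 to M4 against 6.83 to 7.05 in chronic RA, and the aerocyte list was lowest in F (5.87) and highest in M2 (6.75) against 5.51 to 6.15. As sums, the 6 aerocyte genes came to 2943, 1911, 2128, 2908 and 3020.2 CPM in chronic CS F and M1 to M4 against 2696 to 2920.2 CPM in chronic RA, and the 8 general capillary genes to 2909 to 3182 CPM in 4 of the CS libraries and to 3794 CPM in M1 against 3461 to 3534 CPM. The median log2 fold changes of the aerocyte and general lists were 0.43 and 0.47, against 0.01 over all genes. Larger medians were found for alveolar epithelial (2.47), mesenchymal (1.41) and leukocyte genes (0.91). The mesothelial median was 0.30. Cardiac muscle genes went the other way (median -0.83), at sums of 27.8 to 95.5 CPM against 107.5 to 120.8 CPM in chronic RA. By mean log2 CPM the mesenchymal list was also lowest in F and highest in M2. Its value in F, 4.41, was above the highest in chronic RA, 3.61. The summed leukocyte genes ran from 108 to 510.3 CPM against 77.7 to 185 CPM in chronic RA, the mesenchymal genes from 555 to 875 against 416 to 469, and the alveolar epithelial genes from 907 to 4533 against 246 to 468 CPM. Lymphatic genes summed to 14901 to 21220 CPM in chronic CS and to 19934 to 22931 CPM in chronic RA. With only 1 female in each group, sex and library cannot be told apart in these values, and the part of the other transcripts in the levels of Tbx3 and Tbx5 was not tested.

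Room air libraries of the 2 time points were compared next, and they share the acute RA libraries with the contrast that chose the genes. No member passed an adjusted p of 0.05 by edgeR's quasi-likelihood test, and neither did any of the 21440 genes (0%). An unadjusted p under 0.05 was found for 1 member, Tbx5, and for 7.01% of all genes. By DESeq2 0 members and 1.59% of the genes passed after adjustment. Tbx5 was higher in chronic RA, at 0.691 to 0.721 CPM against 0.152 and 0.227 CPM, with a log2 fold change of 1.89 (SE 0.79, edgeR adjusted p = 0.700). Tbx3 was the other member without overlap, lower in chronic RA by 0.33 on the log2 scale (log2 fold change -0.33, SE 0.62, edgeR adjusted p = 0.964), where 34.7% of all genes did not overlap. Tbx1, Tbx2 and Tbx4 had log2 fold changes of 0.14, 0.24 and -0.21, each within 1 SE of 0. Since 10 splits of 3 against 2 libraries exist, an exact permutation test could not go below p = 0.2 here. Marker lists of other cells also differed between these groups. Cardiac muscle genes summed to 107.5 to 120.8 CPM in chronic RA against 25.3 to 71.6 CPM in acute RA (median log2 fold change 1.24). The medians were -1.25 for mesenchyme and -1.285 for alveolar epithelium. They were 0.04 for leukocyte, 0.07 for general capillary and 0.15 for aerocyte genes. The part of these transcripts in the level of Tbx5 was not tested.

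Across the 12 libraries Tbx2 and Tbx3 varied together, with a Pearson r of 0.87 between their log2 CPM, and Tbx1 ran against Tbx3 (r = -0.86). The points share libraries and groups, so these values describe the series and carry no test. Among 14679 other genes with a mean of at least 1 CPM, the pattern of Tbx1 was most like that of 1810008I18Rik (r = 0.95), Nectin2, Myo7a, Gm9913 and Cxxc5. Tbx2 was most like Car14 (r = 0.96), Krt80, Slpi and Cd93, and Tbx3 was most like Adgre5 (r = 0.98), Emp2, Notch4, Hlx and Cdk14. Its r with the aerocyte marker Car4 was 0.98 and with Foxf1 0.96. Other markers were also strongly related to Tbx3, at 0.81 for Col1a1, -0.83 for Prox1, -0.89 for Flt4 and -0.89 for Wnt2. Tbx4 had weaker neighbours, led by Pard6b (r = 0.92), Gsta3, Scnn1a and Slc25a42, and Tbx5 was most like 6430548M08Rik (r = 0.94), Gm45540, Maob, Atp8b1 and Gstm1. Counting genes with r above 0.9 gave 211 for Tbx3, 64 for Tbx2, 38 for Tbx1, 9 for Tbx5 and 3 for Tbx4. By Spearman's rho, 0 to 2 of each gene's 5 nearest genes were the same.

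Of the other 12 T-box genes, Mga was the only one above 10 CPM in any library. Tbx19, Tbx22, Tbr1 and T had no count in any library, and 6 of the 12 passed the filter on low counts. Mga, a large nuclear protein that holds a T-box, measured 46.1 to 107 CPM in the 12 libraries. Tbx21 and Eomes, T-box genes of lymphocytes, reached 7.81 and 3.14 CPM in acute CS F, beside the leukocyte sums given above. In acute RA they were at most 0.0845 and 0.507 CPM. Tbx21 ran from 0.720 to 2.19 CPM in chronic RA and from 0 to 2.58 CPM in chronic CS, with a median of 0 there. Eomes reached at most 0.721 and 0.622 CPM in these groups. Tbx6 lay between 0.846 and 2.50 CPM. None of these genes passed the adjusted threshold by edgeR in any comparison, while DESeq2 called Tbx21 higher after acute CS.

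Genes linked to the 5 members by known function were tested in the same fits, and over 4 lists, the other T-box genes included, 29 of 36 passed the filter. After acute CS 3 of the 29 (10.3%) changed by edgeR's quasi-likelihood test, against 3.47% of all tested genes. Flt4, which acts downstream of Tbx1, fell from 2947 ± 328 to 1374 ± 303 CPM (SD, n = 2 each; log2 fold change -1.10, SE 0.22, edgeR adjusted p = 0.0204). It was the only one of 7 tested genes linked to Tbx1 to pass, and the list's median log2 fold change of -0.0026 (-0.12 when genes at 0 in a group are held at the detection floor or, below it, left out) compares with 0.04 over all genes. Foxf1, a forkhead factor of mesenchyme and capillary endothelium, rose from 56.0 ± 26.2 to 786 ± 272 CPM (log2 fold change 3.81, SE 0.56, edgeR adjusted p = 0.00670). Wnt2, a ligand gene of lung mesenchyme, fell from 79.5 ± 8.32 to 22.6 ± 4.01 CPM (log2 fold change -1.82, SE 0.32, edgeR adjusted p = 0.0122). The 9 mesenchymal genes linked to Tbx4 and Tbx5 thus held 1 gene that rose and 1 that fell, with a median log2 fold change of 0.78. None of the 8 targets of Tbx2 and Tbx3 passed, including the most abundant, Ndrg1, at 273 ± 154 CPM in acute CS and 375 ± 17.5 CPM in acute RA. Cdkn1a, the gene of the cell cycle inhibitor p21, measured 94.2 ± 37.9 and 60.3 ± 4.73 CPM. Their median log2 fold change was 0.55. The 3 calls of the acute comparison became 0 when the chronic libraries were left out of the fit, and 1 with a replicate block. Leaving out single libraries moved the count of 3 calls to 1 without acute RA F, 0 without acute RA M, 1 without acute CS F and 6 without acute CS M.

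**Figure D5:**
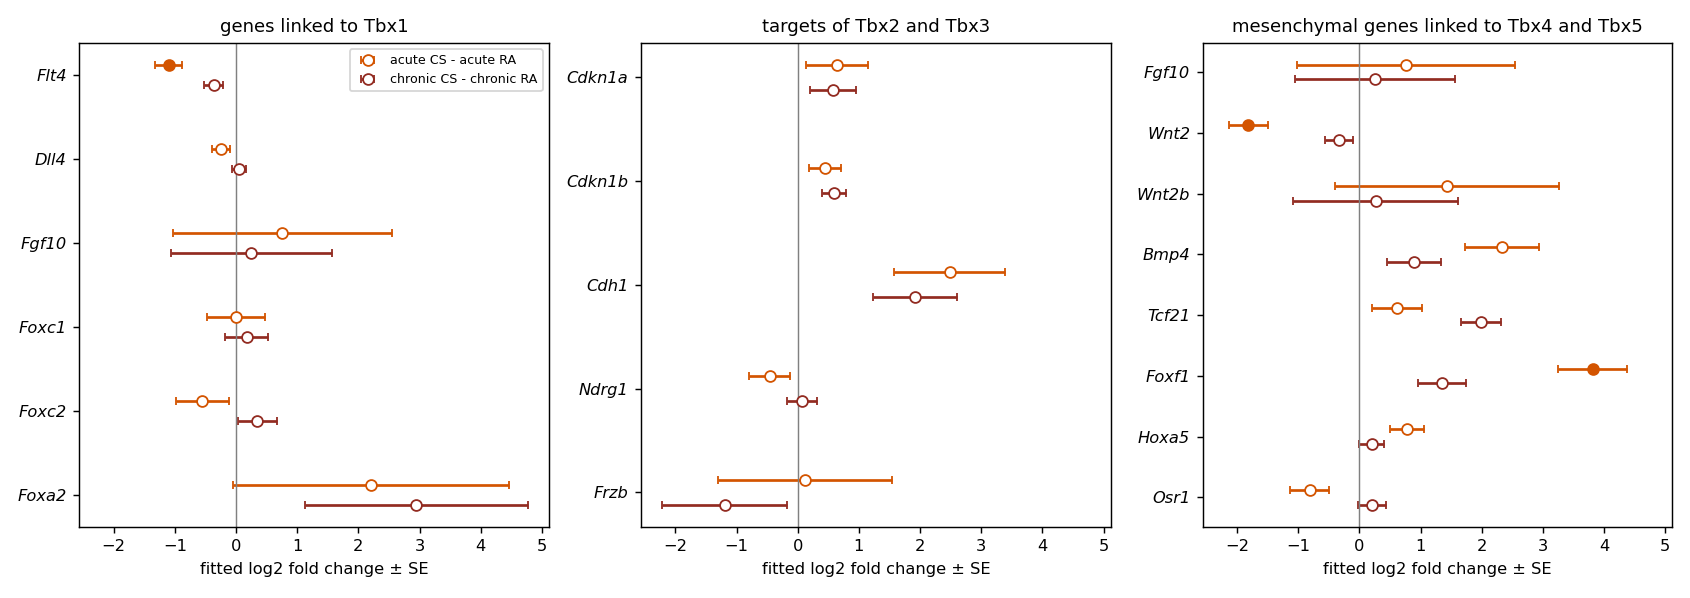
Fitted log2 fold changes with standard errors of genes from 3 lists linked to the members, for acute (orange) and chronic (dark red) CS against RA. Genes under a mean of 1 CPM in every group are not drawn. Filled points passed the adjusted threshold, namely Flt4, Wnt2 and Foxf1 after acute CS.

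After chronic CS none of the 29 genes passed by edgeR's quasi-likelihood test, 5 had an unadjusted p under 0.05 (Cdh1, Cdkn1b, Flt4, Foxf1 and Tcf21), where 10.9% of all genes did, and DESeq2 called 2, Foxf1 and Tcf21, where it called 3.41% of all genes with an adjusted p. Tcf21, a mesenchymal factor, measured 14.4 ± 4.49 CPM in chronic CS (SD, n = 5) against 3.64 ± 0.96 in chronic RA (SD, n = 3), a log2 fold change of 1.99 (SE 0.32, edgeR adjusted p = 0.145). Its 5 CS libraries were all above the RA libraries, as for Tbx3 and Tbx5. Flt4 measured 3429 ± 638 CPM in chronic CS and 4401 ± 175 CPM in chronic RA, a log2 fold change of -0.36 (SE 0.16, edgeR adjusted p = 0.441). The groups did not overlap for Foxf1 either, at 123 ± 60.2 against 48.2 ± 11.6 CPM, a log2 fold change of 1.35 (SE 0.39, edgeR adjusted p = 0.312). Dll4, Ndrg1 and Osr1 overlapped between the groups, with log2 fold changes of 0.05 for Dll4 (SE 0.11), 0.08 for Ndrg1 (SE 0.24) and 0.20 for Osr1 (SE 0.23). The median log2 fold changes were 0.17 for the genes linked to Tbx1, 0.58 for the targets of Tbx2 and Tbx3 and 0.27 for the mesenchymal genes, against 0.01 over all genes.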

How the data were processed

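RNA-seq libraries of polyadenylated RNA from sorted lung LECs were made by the study with SMART-Seq v4 and Nextera XT. Per the study's methods and the labels, reads were checked with FastQC 0.11.9, trimmed, and mapped to GRCm38/mm10 with STAR, and the deposited values are STAR's raw gene counts, not normalized by the authors. Which annotation release and strand setting were used is not given in the sources used here. Of 52636 gene IDs, 52489 matched GENCODE M21.

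Counts of all 12 libraries were fitted in one edgeR (4.0.16) quasi-likelihood model of the 4 groups with TMM factors, after edgeR's filter on low counts (21440 genes), and p-values were adjusted by Benjamini-Hochberg over all of them at 0.05. CPM use TMM-scaled library sizes, FPKM divide CPM by the exon length in kilobases, and log2 CPM use a prior count of 2. Alternatives were DESeq2 (1.42.0), other size factors, no filter, other libraries in the fit, sex or replicate terms, robust dispersion and leaving out each library. The scripts were tested on simulated data. The members and gene lists were chosen with earlier results of these data known. Named are the 5 members, other T-box genes reaching a group mean of 1 CPM, at most 4 list genes past the threshold per comparison, the 5 genes most like each member, and overlapping genes, with the 2 most abundant genes of a list without calls. Some genes that this rule names and 1 of the 5 coding stretches are not reported here. Cdkn1a, Tcf21, Cdh1, Cdkn1b and the marker genes beside the members were named after their values were seen.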

Additional observations from a re-analysis of the deposited data

Results flagged for a closer look

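Tbx3 measured 115.8 CPM in chronic CS M2, a library far from the others of its group, where the next highest was 47.5 CPM. The gap to that library took up 0.720 of the group's range in CPM, just above the critical value of 0.71 for 5 samples. The 5 members were examined in this way in chronic CS, the group with more than 3 libraries. Chance gives such a gap in about 1 of 20 groups. In log2 CPM, M2 stood at 6.86, the next library at 5.57 and the lowest at 4.39. The gap took up less of the range on that scale.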

How the results depend on the processing

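No member was called in chronic CS against chronic RA by edgeR under any alternative, while DESeq2 called 2. In the fit with a replicate block, in which libraries of the same sex and number are paired, the chronic log2 fold changes of Tbx3 and Tbx5 were 1.44 and 1.33, and no member was called. Same-numbered libraries did not deviate together (correlations of -0.04 for F, 0.03 for M1 and 0.01 for M2), so they are taken to share only a number. No block was possible between the room air groups, which share only F. The 3 calls among list genes after acute CS became 6 by DESeq2, 0 with only the groups compared in the fit, 1 with the replicate block and 0 to 6 when each library was left out. For chronic CS DESeq2 called 2 list genes. Tbx2 after acute CS ran from 2.04 to 3.14 on the log2 scale when each library was left out. Tbx4 after acute CS reversed to -0.039 without acute CS F (1.02 at most), and Tbx2 between the room air groups reversed to -0.062 without acute RA F (0.60 at most). The causes of these changes were not tested. Taking CPM in place of FPKM put Tbx3 above Tbx2 in acute RA and chronic CS. The acute groups had 2 libraries each, and Tbx5 rests on 9 to 265 counts per library.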
